A study of Rattus norvegicus with 48 samples.

Results

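The genes described here encode the nuclear part of the mitochondrial respiratory chain in rat kidney. They were chosen by name: probe sets with 1 gene symbol in the array's annotation whose symbol begins with Nduf, Uqcr, Atp5 or Cox4 to Cox8, or is Sdha, Sdhb, Sdhc or Sdhd. The rule gave 43 genes with 1 probe set each, among 7603 probe sets with 1 symbol and 8797 in all, and 2 more probe sets that matched only as 1 of several symbols were not used. By role they were 9 subunits and 3 assembly factors of complex I, 3 subunits of complex II, 5 of complex III, 10 genes of complex IV and 13 of ATP synthase. Cox6c-ps1 is a pseudogene of Cox6c, and signal from near-identical copies of this kind cannot be split with certainty.

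The respiratory chain passes electrons from NADH (complex I) and succinate (complex II) through ubiquinone, complex III and cytochrome c to oxygen (complex IV), and the proton gradient so made drives ATP synthase. Kidney tubules, above all the proximal tubule and the thick ascending limb, are packed with mitochondria because salt reabsorption consumes much ATP. Most subunits are encoded in the nucleus and a smaller set in the mitochondrial genome; the listed genes of the second kind were not analysed here.

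Kidneys came from male rats, aged 12 weeks in the labels, of 4 strains that the labels call F, L, FL and LF; what the letters stand for, and whether the strains carry introduced alleles, is not given in the sources used here. Each strain was given indole-3-carbinol by gavage at 100 mg per kg per day for 7 or 10 days, or its vegetable oil carrier, whose kidneys the labels call day 0. Indole-3-carbinol comes from cabbage-family plants, and in the stomach it forms ligands of the aryl hydrocarbon receptor. The 48 arrays made 12 groups of 4; 8 rats per group were treated, and it is not stated whether RNA was pooled between rats, so p-values measure the spread between these arrays. Replicate numbers 1 to 4 each mark a run of 12 arrays, 1 of every group. Array medians lay between 5.66 and 6.06 log2 units, arrays within a group correlated at 0.979 to 0.992, and Cyp1a1, the standard target of the aryl hydrocarbon receptor, was higher than at day 0 by 1.33 ± 0.22 log2 on day 7 (limma, adjusted p 8.83e-05) and by 1.74 ± 0.22 on day 10 (adjusted p 9.14e-07).

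Values are log2 signals and changes are log2 differences ± standard error from 1 limma fit to all 48 arrays, called where the p-value adjusted over all 8797 probe sets was under 0.05. A probe set's signal also depends on its probes, so signals are compared between samples and never between genes. In whole kidney, fewer cells of a type and less RNA per cell cannot be told apart, and between strains neither can an RNA difference and a sequence difference under the probes.

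No respiratory chain gene passed the threshold in any of the 11 comparisons between days. Averaged over the 4 strains at day 7, 0 of 43 genes were called, where 4.94% of all probe sets were, and 1 gene had an unadjusted p under 0.05. The median difference of the 43 was -0.014 log2, against -0.029 over all probe sets, and 27 of them lay below 0. Of the 10 other settings tried, 3 (the array run as a block, another variance model, and averaging where a gene has several probe sets) leave the fitted differences of the 43 as they are and can change only p-values; the sign of the median turned under 4 of the 7 that can move it. The 95% interval lay within 0.25 log2 of 0 for 32 genes and within 0.5 for 42 genes, which bounds most changes with treatment to a small size.

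At day 10, 0 of 43 genes were called against 2.41% of all probe sets, and again 1 gene had an unadjusted p under 0.05. Their median difference was 0.008 against -0.003 over all probe sets. Intervals lay within 0.25 of 0 for 34 genes and within 0.5 for 41. Between day 10 and day 7 none was called either, where 0.114% of all probe sets were, and 3 genes had an unadjusted p under 0.05.

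**Figure D1:**
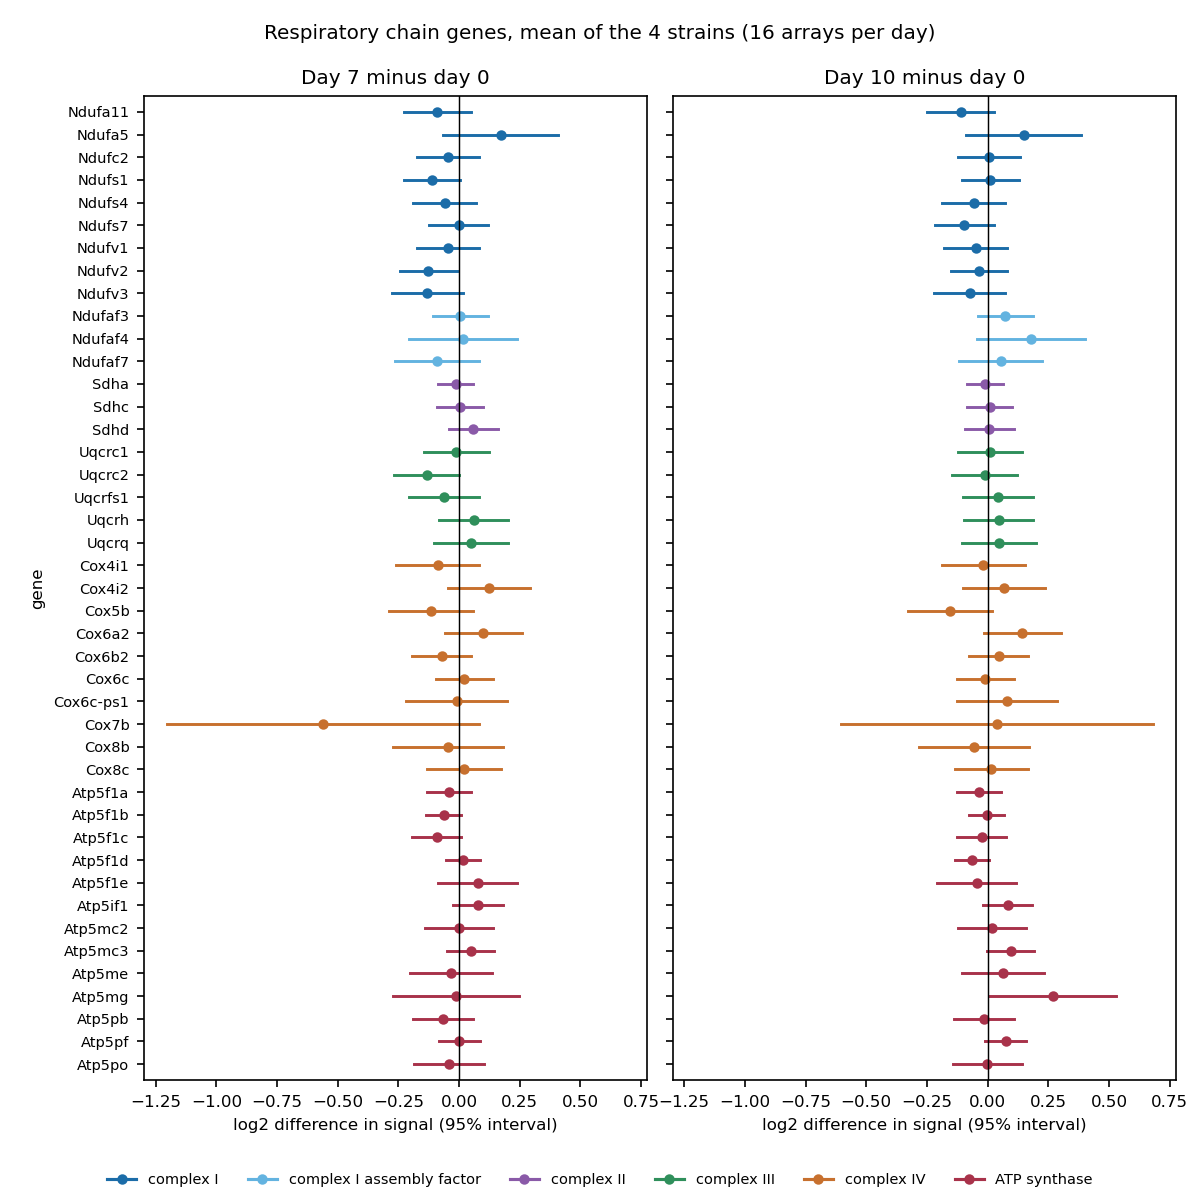
Log2 difference in signal of each of the 43 genes at day 7 (left) and day 10 (right) against day 0 in the mean of the 4 strains, 16 arrays per day; points are fitted differences, bars their 95% intervals, colours the complexes. Intervals of all but 1 gene at day 7 and all but 1 at day 10 hold 0, and the widest by far is that of Cox7b.

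Among complex I subunits, 8 of 9 had day 7 differences below 0, with a median of -0.059, though with a second quantile normalization it was 4 of 9 with a median of 0.005. Ndufv2, a flavoprotein-arm subunit that holds an iron-sulphur cluster, had the smallest p of the 43 at -0.13 ± 0.06 (adjusted p 0.201). Ndufs1, the largest subunit, which holds several iron-sulphur clusters, had -0.11 ± 0.06 (adjusted p 0.258), and at day 10 its difference was 0.01 ± 0.06. The 3 assembly factors, which help build complex I and are not part of it, lay between -0.09 and 0.02 at day 7 and between 0.05 and 0.18 at day 10.

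Complex II is also the succinate dehydrogenase of the citric acid cycle. Sdha, the flavoprotein subunit, differed by -0.01 ± 0.04 at day 7 and by -0.01 ± 0.04 at day 10, with both 95% intervals inside -0.09 to 0.06. The membrane subunits Sdhc and Sdhd lay between 0.00 and 0.06 at day 7 and at 0.01 at day 10.

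In complex III, the core subunit Uqcrc2 had a day 7 difference of -0.13 ± 0.07 (adjusted p 0.245) and Uqcrh, the hinge subunit, one of 0.06 ± 0.07 (adjusted p 0.656). With the array spread (each array's SD of all its signals) added to the fit, Uqcrh was the only one of the 43 genes called at day 7, at 0.16 ± 0.05 (adjusted p 0.0316). The array spread averaged 2.45 at day 0, 2.41 at day 7 and 2.45 at day 10.

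Complex IV held both general and tissue-restricted isoforms. Cox4i1, the general form of subunit 4, differed by -0.09 ± 0.08 at day 7 and by -0.02 ± 0.08 at day 10, and Cox4i2, its oxygen-regulated form, by 0.12 ± 0.08 and 0.07 ± 0.08. The muscle isoforms Cox6a2 and Cox8b differed by 0.10 ± 0.08 and -0.04 ± 0.11 at day 7, and the testis isoforms Cox6b2 and Cox8c by -0.07 ± 0.06 and 0.02 ± 0.08. None of these isoform genes was called at either day. The probe sets of Cox8b, Cox8c and Cox6c-ps1 had mean signals of 3.35, 3.22 and 2.80. They were among those dropped in the setting that leaves out the dimmest 25% of probe sets. Whether signals this low stand above background was not tested.

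Cox7b, a small structural subunit, had the largest day 7 difference of the 43 at -0.56 log2, with a 95% interval from -1.20 to 0.08 (adjusted p 0.316). Its arrays ranged from 3.99 to 8.21, and its pooled SD between replicates of 0.944 was the largest of the 43, followed by 0.377 for Atp5mg, with a median of 0.188. The run means of Cox7b were 6.56, 6.31, 6.30 and 5.26 for runs 1 to 4, so run 4 was low. The median of the chain was low in run 4 as well. With each gene centred on its mean, the median of the 43 averaged 0.075, 0.029, 0.011 and -0.097 in runs 1 to 4. The array spread averaged 2.48, 2.46, 2.43 and 2.38. Over all probe sets, the median centred in the same way lay between -0.186 and 0.047 on run 4 arrays. On run 1 arrays it lay between -0.019 and 0.074. Not every chain gene was low in run 4: Cox4i2, Cox6a2 and Atp5if1 had their highest run mean there. Every group has 1 array in each run.

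**Figure D2:**
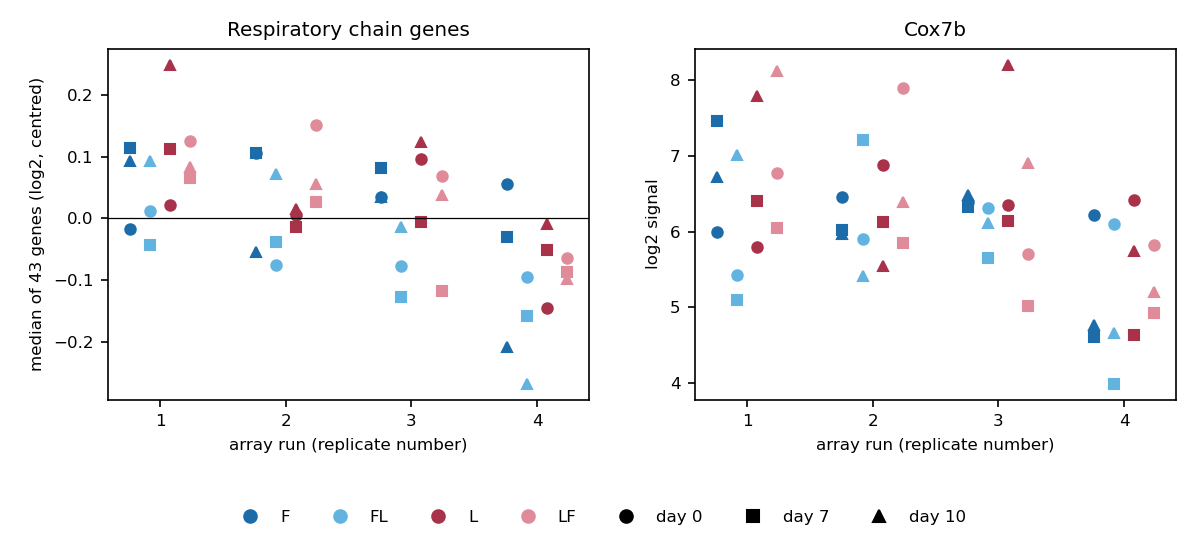
Left, the median over the 43 genes on each of the 48 arrays (log2, each gene centred on its mean) by array run; right, the log2 signal of Cox7b on the same arrays. Colours are strains and shapes are days; in run 4 most arrays lie below 0 on the left, and the lowest Cox7b signal of 3.99 lies there on the right.

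ATP synthase genes had day 7 differences between -0.09 and 0.08 and a median of -0.011. Its rotor ring is made of subunit c, which several genes encode: Atp5mc2 differed by 0.00 ± 0.07 at day 7 and Atp5mc3 by 0.05 ± 0.05. Atp5if1, the inhibitor that blocks ATP hydrolysis when the gradient fails, had 0.08 ± 0.05 at both days. Atp5mg, the membrane subunit g that helps join the enzyme into dimers, had the smallest p of the 43 at day 10, at 0.27 ± 0.13 (adjusted p 0.496).

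Each strain was then compared with its own day 0. In F, 0 of 43 genes were called at day 7 (0.671% of all probe sets) and 0 at day 10 (0.239%), and in L 0 at either day (0.0114% at day 7 and 0.0114% at day 10). In FL, 0 were called at day 7 (0.159%) and 0 at day 10 (0.0909%), and in LF 0 at day 7 (2.26%) and 0 at day 10 (0.887%). Unadjusted p-values under 0.05 numbered 0 and 2 in F, 0 and 5 in L, 2 and 2 in FL and 5 and 0 in LF, day 7 first. With 4 arrays per group the precision was lower, and the 95% interval lay within 0.5 log2 of 0 for 32 to 37 of the 43 genes and within 0.25 for only 3 to 9.

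The medians of the 43 genes pointed different ways in the strains. At day 10 the median was -0.080 in F, with 36 genes below 0 where 62% of all probe sets were, and 0.123 in L, with 35 genes above 0. Over all probe sets the medians were -0.05 in F and 0.022 in L, where 4975 of 8797 lay above 0. At day 7 in LF it was -0.090 with 32 genes below 0, where all probe sets had a median of -0.062 and 60.2% below 0, and this sign turned under 4 of the 7 settings that can move it, with values up to 0.030. The medians of F and L at day 10 kept their sign under those 7 settings, between -0.088 and -0.008 for F and between 0.064 and 0.123 for L. On single arrays, however, the centred median of the 43 overlapped between days in both strains. In F it was -0.017, 0.105, 0.034 and 0.056 at day 0, and 0.093, -0.055, 0.035 and -0.208 at day 10. In L it was 0.021, 0.006, 0.096 and -0.145 at day 0, and 0.249, 0.015, 0.124 and -0.009 at day 10. In the test of strain by day interaction 0 of 43 genes were called (0.193% of all probe sets), 2 had an unadjusted p under 0.05, and the smallest adjusted p was 0.708, for Cox6b2.

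The gene nearest to a call in a single strain was Atp5mg in LF. Its 4 LF arrays read 8.35, 8.31, 8.09 and 7.88 at day 0, 7.49, 7.51, 7.68 and 7.03 at day 7, and 8.44, 8.50, 7.61 and 8.31 at day 10. All 4 day 7 arrays lay below all 4 day 0 arrays, and 3 of the 4 day 10 arrays were back in or above the day 0 range. The day 7 difference was -0.73 ± 0.26 (adjusted p 0.118), and with the array run as a block it was called, at -0.73 ± 0.23 (adjusted p 0.0411). In F the day 7 difference of the same gene was 0.47 ± 0.26 (adjusted p 0.808), and its interaction of strain and day had an adjusted p of 0.845.

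Ndufaf4, a complex I assembly factor, stood next in LF. It read 7.91, 7.93, 7.59 and 7.53 at day 0 and 7.42, 7.01, 6.86 and 7.35 at day 7, with no overlap, and the difference was -0.58 ± 0.22 (adjusted p 0.146). Without run 4 it was the 1 gene called in LF at day 7. Groups without overlap at LF day 7 were found for 3 genes, Ndufaf4, Cox6b2 and Atp5mg, all lower, which is 6.98% of the 43 against 8.73% of all probe sets.

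Other markers moved with treatment while the chain genes were not called. Of the markers of Henle's loop and the distal convoluted tubule 6 of 13 fell at day 7 and 0 rose, among them Slc12a1, the salt transporter of the thick ascending limb, by 0.25 ± 0.06 log2, and the calcium-binding protein Calb1 by 0.89 ± 0.12. Of collecting duct markers 7 of 13 fell, such as the water channel Aqp2 by 0.52 ± 0.08, and of proximal tubule markers 4 of 16, such as the glucose transporter Slc5a2 by 0.25 ± 0.07. These values are means of the 4 strains. Over all 8797 probe sets, 4.94% were called in that mean at day 7, 105 higher and 330 lower. At day 10 it was 2.41%, 111 higher and 101 lower. Within single strains Slc5a2 was called at day 7 only in LF (-0.74 ± 0.14, adjusted p 0.00163). Of 9 markers of smooth muscle, pericytes and fibroblasts 2 rose at day 7 and 4 at day 10. The part of these cell types in the chain genes' values was not tested.

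The pathways around the chain gave few calls with treatment. Among all probe sets, 4.94% were called at day 7 and 2.41% at day 10. A list of 14 citric acid cycle and related enzymes also took in the pyruvate dehydrogenase complex and the cytosolic malate dehydrogenase Mdh1. Of these 14, 1 fell at day 7, Pdha1 of the pyruvate dehydrogenase complex (-0.24 ± 0.06, adjusted p 0.0184), and 0 were called at day 10. Of 8 electron carriers and ubiquinone synthesis genes, 9 further assembly factors and 14 glycolysis enzymes, 0 were called at either day. Of 13 carriers and pores of the inner and outer membrane, a list that includes Atp5if1, only Slc25a25 was called, a carrier that exchanges ATP-magnesium for phosphate: it rose by 0.75 ± 0.20 on day 7 (adjusted p 0.0172) and by 0.98 ± 0.20 on day 10 (adjusted p 0.00163). Within single strains Slc25a25 was called only in F at day 7 (1.88 ± 0.39, adjusted p 0.00698).

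Of 14 regulators of mitochondrial gene expression 2 fell at day 7, the nuclear receptor Esrrb (-0.26 ± 0.08, adjusted p 0.0474) and Prkaa2, a catalytic subunit of AMP-activated kinase (-0.16 ± 0.05, adjusted p 0.048), and 0 were called at day 10. Of 11 antioxidant enzymes Gpx1, which reduces peroxides with glutathione, rose at both days (0.19 ± 0.04 and 0.15 ± 0.04, adjusted p 0.00299 and 0.0374). Nnt, the inner membrane enzyme that uses the proton gradient to make NADPH, fell at day 7 (-0.16 ± 0.05, adjusted p 0.0407). The shares of all probe sets called were 4.94% at day 7 and 2.41% at day 10.

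Between strains, 10 chain genes passed the threshold. Over the 6 strain pairs, each in the mean of the 3 days with 12 arrays per strain, there were 17 calls: on Ndufs7, Ndufaf4, Ndufaf7, Uqcrfs1, Uqcrq, Cox4i1, Atp5f1b, Atp5f1e, Atp5mc3 and Atp5mg. The counts were 4 of 43 for F against L (7.32% of all probe sets), 5 for FL against LF (10.7%), 5 for LF against F (7.57%) and 3 for FL against L (9.67%). For FL against F, 0 of 43 were called (0.352%), with 7 at an unadjusted p under 0.05, and for LF against L 0 (0.693%), with 3 at an unadjusted p under 0.05. These shares lie near those of all probe sets, so the chain did not stand out by its number of strain differences, and the pairs share strains and so are not independent. All 17 calls had the same sign within each of the 4 runs. The runs are parts of the arrays that gave the calls, so this is no separate support for them.

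**Figure D3:**
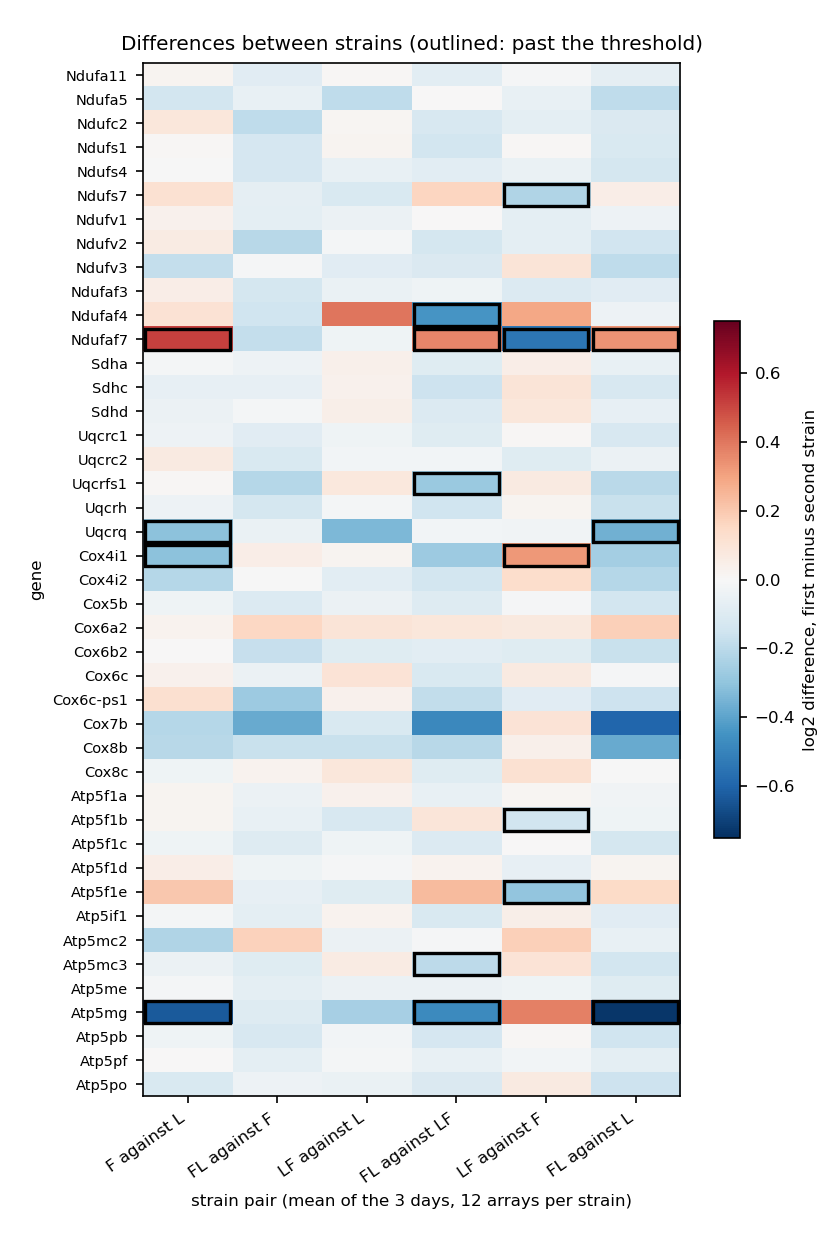
Log2 difference of each of the 43 genes in the 6 strain pairs, first minus second strain, in the mean of the 3 days; red is higher in the first strain, blue lower, and black outlines mark the 17 calls. The outlined cells of Ndufaf7 and Atp5mg have opposite colours in F against L, in FL against LF and in FL against L.

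The smallest adjusted p of a strain difference in the chain was that of Ndufaf7, a methyltransferase that modifies a complex I subunit during assembly. Over 12 arrays its signal had a lowest, median and highest value of 5.47, 5.96 and 6.26 in F, 4.89, 5.80 and 6.15 in FL, 5.15, 5.37 and 5.78 in L, and 4.99, 5.47 and 5.63 in LF. F and FL were thus the high strains and L and LF the low ones, with overlap at the edges. F was above L by 0.51 ± 0.10 (adjusted p 0.000281), LF was below F by 0.54 ± 0.10 (adjusted p 0.000122), FL was above LF by 0.36 ± 0.10 (adjusted p 0.0101) and above L by 0.33 ± 0.10 (adjusted p 0.0211).

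The 4 Ndufaf7 differences kept their sign on each day, but not their size. F against L was 0.64 at day 0, 0.38 at day 7 and 0.51 at day 10, and within the 4 runs it was between 0.33 and 0.69. FL against L was smallest at day 7, at 0.06, where the FL array of run 4 read 4.89, the lowest of all 48. All 4 Ndufaf7 calls held under the 10 other settings and without each single array of 48. With a whole run of 12 arrays left out, F against L and LF against F held in 4 of 4 cases, FL against LF in 2 and FL against L in 1.

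Acad9, another assembly factor of complex I that also belongs to the acyl-CoA dehydrogenases, was called in the same 4 pairs with the same signs. It was higher in F than in L by 0.51 ± 0.07 (adjusted p 1.78e-06), in FL than in LF by 0.39 ± 0.07 (adjusted p 0.000148) and in FL than in L by 0.43 ± 0.07 (adjusted p 4.58e-05), and it was lower in LF than in F (-0.47 ± 0.07, adjusted p 7.12e-06). Of the 9 further assembly factors only Acad9 was called in F against L. In the FL pairs others of the list were called the opposite way. Higd1a was lower in FL than in LF (-0.47 ± 0.14, adjusted p 0.0281), and Sdhaf2 was lower in FL than in L (-0.26 ± 0.08, adjusted p 0.0441).

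Atp5mg ran the other way. Its lowest, median and highest signals were 6.74, 7.73 and 8.07 in F, 6.57, 7.45 and 8.16 in FL, 7.76, 8.23 and 8.67 in L, and 7.03, 7.99 and 8.50 in LF. L was the high strain, and F and FL were low with wide spreads. F was below L by 0.63 ± 0.15 (adjusted p 0.00349) and FL below L by 0.73 ± 0.15 (adjusted p 0.000624), and both calls held under 10 of 10 settings and without each single array; the first held without 3 of the 4 runs and the second without each. FL was below LF by 0.48 ± 0.15 (adjusted p 0.0291), a call that held in 5 of 10 settings; it rested on days 0 and 10 (-0.84 and -0.61), while day 7 gave 0.01, the day on which LF was low. It was lost without any 1 of 7 arrays: FL day 0 replicate 4, FL day 7 replicate 4, FL day 10 replicate 3, LF day 0 replicates 1 and 2, and LF day 10 replicates 1 and 2, with adjusted p up to 0.0756.

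Uqcrq, a small subunit of complex III, was highest in L. Its lowest, median and highest signals were 8.53, 8.97 and 9.22 in L, against 8.20, 8.64 and 8.82 in F, 8.15, 8.55 and 8.94 in FL, and 8.31, 8.55 and 8.81 in LF. F was below L by 0.31 ± 0.09 (adjusted p 0.0194), a call lost without F day 10 replicate 4 (adjusted p 0.0508), and FL was below L by 0.36 ± 0.09 (adjusted p 0.00462). LF lay below L by as much, at -0.34 ± 0.09, and just missed the threshold (adjusted p 0.0557). With the run as a block it was called (adjusted p 0.000846), as it was with each array's median subtracted (adjusted p 0.00437).

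Cox4i1, the general isoform of cytochrome oxidase subunit 4, had lower means in F and FL (9.74 and 9.791) than in L and LF (10.045 and 10.065). Its lowest, median and highest signals were 9.16, 9.80 and 10.09 in F, 9.45, 9.85 and 10.06 in FL, 9.65, 10.04 and 10.43 in L, and 9.80, 10.04 and 10.35 in LF. F was below L by 0.31 ± 0.10 (adjusted p 0.0455) and LF above F by 0.33 ± 0.10 (adjusted p 0.0297). The first call was lost without any 1 of 21 arrays (adjusted p up to 0.12, without F day 7 replicate 4), and the second without any 1 of 8, the highest p being 0.0783, also without F day 7 replicate 4. With the run as a block Cox4i1 was also called in FL against LF (-0.27 ± 0.06, adjusted p 0.000616) and FL against L (-0.25 ± 0.06, adjusted p 0.00162). Its low-oxygen counterpart Cox4i2 was called in no pair.

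**Figure D4:**
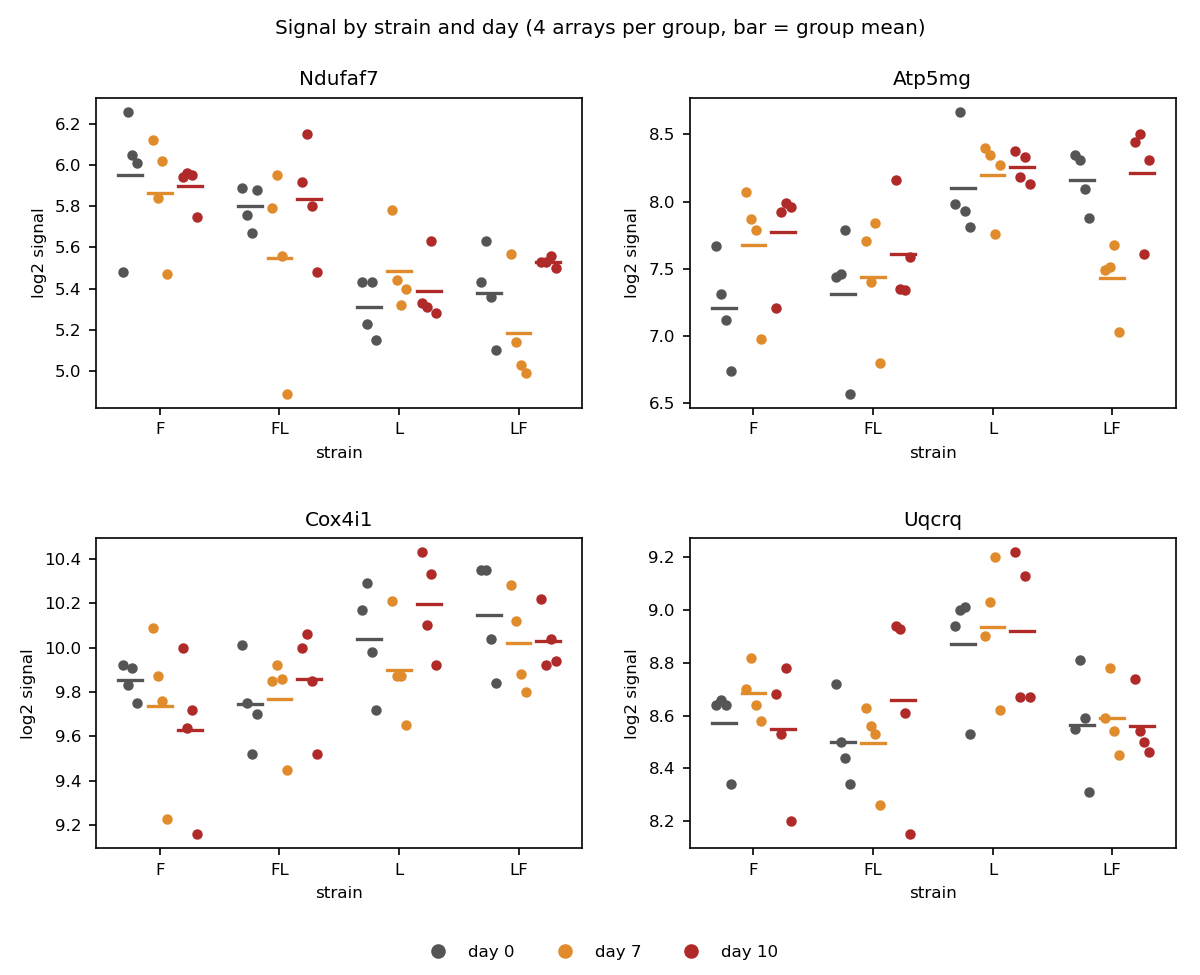
Log2 signal of Ndufaf7, Atp5mg, Cox4i1 and Uqcrq on each of the 48 arrays by strain and day; points are arrays, 4 per group, and bars are group means. Ndufaf7 points lie higher in F and FL, Atp5mg points higher in L, and Uqcrq points higher in L than in the other strains, with overlap between strains in all 4 genes.

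The other 6 genes were each called in 1 pair. In FL against LF, the assembly factor Ndufaf4 was lower by 0.44 ± 0.13 (adjusted p 0.0178), the Rieske iron-sulphur protein Uqcrfs1 by 0.28 ± 0.08 (adjusted p 0.0208) and Atp5mc3, a gene of rotor subunit c, by 0.20 ± 0.06 (adjusted p 0.0158). These held in 8, 6 and 7 of 10 settings, and Uqcrfs1 was lost without FL day 7 replicate 4, FL day 10 replicate 4 or LF day 7 replicate 1 (adjusted p up to 0.0595). Their lowest, median and highest signals in FL and then in LF were 6.45, 7.08 and 7.59 against 6.86, 7.56 and 7.93 for Ndufaf4, and 7.86, 8.35 and 8.54 against 8.24, 8.54 and 8.89 for Uqcrfs1.

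In LF against F, Ndufs7, a subunit that passes electrons to ubiquinone, was lower by 0.23 (adjusted p 0.0361), the catalytic ATP synthase subunit beta Atp5f1b by 0.15 (adjusted p 0.0182) and its central stalk subunit epsilon Atp5f1e by 0.30 (adjusted p 0.0407). Atp5f1b was the smallest and steadiest of these: its F arrays read 11.99 to 12.28 and its LF arrays 11.88 to 12.15, and the call held in 10 of 10 settings and without each single array. Ndufs7 kept its call without 37 of the 48 single arrays and Atp5f1e without 32, with adjusted p up to 0.0953 and 0.095; their calls were lost without any 1 of 11 and of 16 arrays. With a whole run left out, the Uqcrq call in FL against L held in 3 of 4 cases, that of Uqcrfs1 in 0, and each call whose runs are not given here or above in 1.

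Most of the 43 genes had a small difference below 0 in FL against each other strain. Against F, 39 of 43 genes were below 0 with a median of -0.074, where 61.2% of all probe sets were below 0 with a median of -0.027. The 39 held all 9 subunits and all 3 assembly factors of complex I, all 3 of complex II and all 5 of complex III. They also held 7 of 10 genes of complex IV and 12 of 13 of ATP synthase. Against L, 38 genes were below 0 with a median of -0.113 (all probe sets 61% below 0, median -0.043). Against LF it was 35 genes with a median of -0.098 (all probe sets 58.9% below 0, median -0.033). No gene was called against F, where the nearest was Ndufv2 at -0.21 ± 0.07 (adjusted p 0.268). These 3 medians kept their sign under the 7 settings that can move them but shrank under rescaling: with a second quantile normalization they were -0.025 with 32 genes below 0 against F, -0.022 with 24 against L, and -0.006 with 24 against LF. The array spread averaged 2.41 in FL against 2.43 in F, 2.46 in L and 2.45 in LF. With the spread in the fit the medians were -0.044, -0.018 and -0.028. Without the 5 arrays of smallest spread they were -0.052, -0.063 and -0.066, with 36, 34 and 31 genes below 0. The genes share the same arrays, so their counts are not separate evidence. On single arrays the centred median of the 43 overlapped between strains. FL arrays ran from -0.268 to 0.092. The lowest and highest values were -0.208 and 0.113 for F. They were -0.145 and 0.249 for L, and -0.118 and 0.151 for LF.

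Some markers of kidney cell types were also lower in FL than in L or LF. Among all probe sets, 9.67% were called in FL against L, 167 higher and 684 lower. In FL against LF it was 10.7%, 235 higher and 710 lower, and in FL against F 0.352%. Of collecting duct markers 6 of 13 were lower in FL than in L, with a median of -0.240 over the list, and 4 of 13 lower than in LF, with 0 higher in either. Of markers of Henle's loop and the distal convoluted tubule 3 of 13 were lower than in L (list median -0.197), and 1 was lower and 1 higher than in LF. Of proximal tubule markers 3 of 16 were higher and 2 lower in FL against L, and likewise against LF. Of macrophage markers 1 of 8 was lower than in L and 3 than in LF, and of the 13 carriers and pores 2 and 3 were lower. Against F, none of these markers or carriers was called, with list medians of -0.109 for the collecting duct and -0.122 for the loop and distal tubule. The part of these cell types in the FL values of the chain was not tested.

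With the array run as a block, the counts in 2 of the FL pairs doubled or more. FL against LF gave 10 calls, 3 higher and 7 lower, with Ndufs1, Sdhc, Cox4i1, Atp5f1b and Atp5f1e added. FL against L gave 10, 1 higher and 9 lower, with Ndufv3, Cox4i1, Cox8b, Atp5f1c, Atp5mc3, Atp5pb and Atp5po added. The split of FL against LF, 1 higher and 4 lower in the fit without the block, also moved with the scaling: it was 4 higher and 3 lower with array medians subtracted, 4 and 2 with a second quantile normalization, 4 and 3 with cyclic loess, and 2 and 1 with the array spread in the fit. Under the first 3 of these Ndufs7, Atp5f1b and Atp5f1e were called as higher. The block raised the count over all probe sets as well, to 1482 from 945 and to 1475 from 851.

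Some genes of neighbouring pathways also differed between strains. The shares of all probe sets called were 7.32% in F against L and 7.57% in LF against F. They were 9.67% in FL against L and 10.7% in FL against LF. Of 8 electron carriers and ubiquinone synthesis genes 3 were lower in FL than in L: Etfa (-0.30 ± 0.06) and Etfdh (-0.42 ± 0.09), which pass electrons from fatty acid oxidation to ubiquinone, and Coq10b (-0.37 ± 0.12). The same count was lower in FL than in LF. Of 14 regulators 1 was higher and 2 lower in F against L, 1 and 1 in FL against L, 1 and 2 in FL against LF, and 2 and 1 in LF against F. Tfam, which packages and transcribes mitochondrial DNA, was lower in F than in L (-0.33 ± 0.08, adjusted p 0.00663) and in FL than in L (-0.42 ± 0.08, adjusted p 0.000374), and Polg, the mitochondrial DNA polymerase, was higher in F than in L (0.21 ± 0.06, adjusted p 0.0227). Prkaa2 was lower in F than in L (-0.22 ± 0.06, adjusted p 0.00856). Ppara, a nuclear receptor that drives fatty acid oxidation genes, was higher in LF than in F (0.45 ± 0.09, adjusted p 0.000759) and lower in FL than in LF (-0.50 ± 0.09, adjusted p 0.000155).

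Of the 14 citric acid cycle and related enzymes, Mdh1, the cytosolic malate dehydrogenase, was lower in F than in L (-0.27 ± 0.06, adjusted p 0.000889). Suclg1, a succinyl-CoA ligase subunit, was higher (0.22 ± 0.06, adjusted p 0.0222). Of 14 glycolysis enzymes 2 were lower in F than in L, Pfkp (-0.31 ± 0.08) and Pklr (-0.35 ± 0.09). In that pair 7.32% of all probe sets were called, 215 higher and 429 lower. Of cell type markers in F against L, 4 of 8 macrophage genes were lower, 3 of 16 proximal tubule genes were higher and 1 lower, and 3 of 13 collecting duct genes were lower and 1 higher. The part of these cell types in the strain differences of the chain genes was not tested.

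The promoters of the chain genes were read from RefSeq's rat assembly GRCr8, in a window of 250 bases before to 50 after each start, which held 40 of the 43 genes and not Cox4i2, Cox6c or Cox6c-ps1. Factors known to drive nuclear genes of the chain were searched by fixed letters on both strands: the core of the NRF1 site GCATGCGC, which overlaps its own reverse complement, the GABP site CCGGAAGT, the YY1 site AAGATGGCG and the ERR site TCAAGGTCA. The NRF1 letters were in 8 of 40 windows (20%) against 2.66% of all 27457 promoters, and the GABP letters in 5 (12.5% against 4.01%). The YY1 letters were in 4 (10% against 1.93%) and the ERR letters in 2 (5% against 0.412%), and 18 of 40 held at least 1 of them (45% against 8.46%). The median GC content was 56.5% in the 40 windows and 52.3% in all. Of the 10 genes called between strains, 4 are shown because their window holds such a match before the start; capitals mark the matched letters, both strands are counted, and overlapping matches are joined.
Atp5mg, NRF1 letters, minus strand, chr8:54130613-54130657: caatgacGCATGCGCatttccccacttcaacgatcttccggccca
Uqcrq, GABP letters, minus strand, chr10:38089979-38090030: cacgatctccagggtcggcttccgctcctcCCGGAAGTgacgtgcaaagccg
Ndufaf4, NRF1 letters, plus strand, chr5:43401607-43401676: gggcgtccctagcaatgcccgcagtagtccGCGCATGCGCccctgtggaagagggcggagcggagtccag
Atp5mc3, ERR letters on the opposite strand, minus strand gene, chr3:79220683-79220751: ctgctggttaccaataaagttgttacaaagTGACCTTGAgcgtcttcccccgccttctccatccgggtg

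These are reference letters of the assembly, not of the 4 strains, whose own sequences were not analysed here. Ndufs7 held the YY1 letters in its window, just after the start. Ndufaf7, Cox4i1, Uqcrfs1, Atp5f1b and Atp5f1e had a window without any of the searched letters, which says only that those letters are not in it. Matches were thus found in 5 of the 10 genes called between strains and 13 of the other 30 with a window.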

How the data were processed

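Values are the log2 signals the authors deposited, 1 per probe set and array; RMA and limma are named, with no version, per the submitters' processing notes. The build, the probe set selection and any filter are not given in the sources used here. RNA was depleted of ribosomal RNA and made into labelled sense targets, per the labels' protocols. All columns were mapped to strain, day and replicate by label. One mean per group was fitted to the 48 arrays (R 4.3.3, limma 3.58.1; 36 residual and 3.69 prior degrees of freedom), with 17 contrasts and 1 F test, adjusted by Benjamini and Hochberg over 8797 probe sets at 0.05. The scripts were tested on simulated data.

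The members, lists and tests were chosen with earlier results of these data known. Named genes were up to 5 calls in each direction per comparison, the isoform and subunit c genes, the assembly factors, up to 4 genes of each other list, and the smallest p where nothing passed; highest and lowest levels within a complex were not named, since probe sets are not comparable. Replicate numbers mark array runs, from the run shown in the labels; deviations of same-run arrays correlated at a median of 0.071 (lowest -0.268), those of different runs at -0.032, and the run as a block was an alternative. Other alternatives were 3 rescalings, array spread, array weights, filters, variance models, probe set means, and leaving out arrays or runs.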

Additional observations from a re-analysis of the deposited data

Results flagged for a closer look

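In 132 sets of 4 arrays (11 genes in 12 groups), 9 had 1 array set apart from the other 3 relative to their range. Its gap to the nearest, divided by the range of the 4, was above Dixon's 95% critical value. Chance passes that value in about 1 in 20 sets. The genes were the 10 called between strains and Cox7b, so they were chosen by their values, and sets of 1 run are not independent. Of the 9 arrays, 6 were low arrays of run 4. Low arrays of run 4 were Ndufaf7 in F at day 10 (5.75, others 5.94 to 5.96), Uqcrq in F at day 0 (8.34, others 8.64 to 8.66) and in L at day 0 (8.53, others 8.94 to 9.01), and Cox4i1 in FL at day 7 (9.45, others 9.85 to 9.92). Also low in run 4 were Atp5mc3 in F at day 7 (10.82, others all 10.86) and Cox7b in L at day 7 (4.63, others 6.13 to 6.40). The Atp5mc3 array was flagged because the other 3 read the same. Its gap was smaller than the gene's pooled SD between replicates of 0.131. Atp5mg in F at day 10 was low in run 1 (7.21, others 7.92 to 7.99). High arrays were Ndufaf7 in L at day 10 in run 3 (5.63, others 5.28 to 5.33) and Uqcrfs1 in LF at day 7 in run 1 (8.89, others 8.24 to 8.33).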

How the results depend on the processing

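No called gene changed sign under any alternative. The count of called chain genes stayed within 1.5 times in most settings; the exceptions follow, and the cause was not tested. With the replicate block (the array run, which pairs same-numbered arrays), LF at day 7 gave 1, LF against L 2, FL against LF 10 and FL against L 10; it moved no other count past 1.5 times. LF against L, with 0 calls, gave 2 with medians subtracted, 2 with a second quantile normalization, 3 with cyclic loess, 3 with the array spread as covariate, and 1 each with array weights, after dropping the 5 arrays with the smallest spread, and after dropping the dimmest 25% of probe sets; Uqcrq was among the calls in each. FL against LF gave 3 with the array spread and 1 without those 5 arrays, FL against L 5 with array weights, LF against F 3 without those 5 arrays, and day 7 gave 1 with the array spread. Leaving out single arrays or whole runs gave 0 to 1 in LF at day 7, 1 to 5 in F against L, 0 to 1 in LF against L, 0 to 7 in FL against LF, 1 to 5 in LF against F and 1 to 6 in FL against L, and 0 in every other comparison. The lowest counts came without a whole run: F against L kept 1 call without run 2 (Ndufaf7) and LF against F 1 without run 1 or run 2 (Ndufaf7), FL against LF 0 without run 2, FL against L 1 without run 3 (Atp5mg). The number of arrays limits the precision.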
